A study of Aedes aegypti with 20 samples.

Results

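Methoprene-tolerant (Met, AAEL025915), Krüppel homolog 1 (Kr-h1, AAEL002390), the ecdysone receptor (EcR, AAEL019431) and ultraspiracle (usp, AAEL000395) are the core receptors and the early response gene of the 2 main insect hormone systems. These 4 genes were picked by ID out of the 19804 gene IDs of the yellow fever mosquito Aedes aegypti in the table, and all 4 were among the 11381 genes with enough counts to be tested. The set holds 3 genes for receptors or receptor partners and 1 response gene, and its names come from general knowledge of these IDs, because neither the table nor the reference used here names them. Transcripts were measured by RNA sequencing in 4 groups of 5 libraries: male pedicels, female pedicels, male heads and female heads. The pedicel is the antennal segment that houses Johnston's organ, the mosquito's ear. All mosquitoes were of the Liverpool strain and were frozen at zeitgeber time 12 after 2 days of entrainment. The males were virgin, and of the females it is stated only that they had not fed on blood, and the labels give no age. Levels are CPM, a gene's count scaled to a common library size and corrected with TMM factors, and folds are male over female or pedicel over head. Genes with an adjusted p under 0.05 are spoken of as called.

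Juvenile hormone is made by the corpora allata, glands behind the brain. It binds Met, a bHLH-PAS transcription factor that acts as its receptor inside the cell, and the best known gene switched on by this complex is Kr-h1, a zinc finger transcription factor. The steroid 20-hydroxyecdysone binds EcR, a nuclear receptor that works as a dimer with the product of usp. In female Aedes aegypti, juvenile hormone prepares the fat body and ovary after emergence, and ecdysone drives yolk protein synthesis after a blood meal.

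Depth and makeup differed between libraries. The summed estimated counts of a library ran from 5060010 to 9404311 and included 213 to 754 counts of Met, 52 to 779 of Kr-h1, 30 to 287 of EcR and 151 to 972 of usp in a library. Pedicels differed from each other in a pair of library measures that are given beside the results they move with. The first is the median level of 50 genes abundant in heads and picked for their low values in some pedicel. In percent of the mean head it was 4.34 to 36.6 for male pedicels and 34.1 to 67.8 for female pedicels. For male heads it was 94.5 to 102 and for female heads 97.1 to 108. Male and female pedicels hardly overlapped in it, so a fit with it as a covariate can hardly tell it from sex. The second is the share of counts held by transcripts that carried exactly the values of a transcript under another gene ID, which was 2.17% to 35.2% for male pedicels, 6.13% to 26.2% for female pedicels, 2.51% to 3.34% for male heads and 2.61% to 3.72% for female heads. No transcript of the 4 genes was among these copies. The labels name no batch, and no source says which animals went into which library, so the p-values reflect how far these libraries varied, which may be technical. The tissue labels were not checked against named marker genes, since no ID could be paired with a name.

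Met, the juvenile hormone receptor, was higher in the pedicel than in the head of males. Male pedicels 1 to 5 held 83.7, 55.5, 77.3, 67.9 and 84.9 CPM of Met, against 48.8, 40.4, 53.4, 48.1 and 49.2 CPM in male heads 1 to 5. Every male pedicel lay above every male head, with a log2 fold of 0.62 (SE 0.13, a fold of 1.54 with a 95% interval of 1.27 to 1.86, edgeR adjusted p = 0.000589). In bulk tissue, fewer cells that express a gene and less RNA per cell cannot be told apart, here or in the results that follow. Female pedicels 1 to 5 held 57.3, 60.7, 74.6, 58.1 and 69.1 CPM, against 67.6, 58.2, 81.1, 56.7 and 55.0 CPM in female heads 1 to 5. These female ranges overlapped, and the log2 fold of 0.00 (95% interval -0.27 to 0.28, edgeR adjusted p = 0.986) leaves room for folds of 0.828 to 1.21. The male call was lost with library totals in place of TMM factors, at a log2 fold of 0.43 (adjusted p = 0.213, the highest of 32 alternatives, of which the lowest was 1.9e-05).

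Between the sexes, Met was not called in either tissue. In the pedicel the log2 fold was 0.21 (95% interval -0.07 to 0.49, edgeR adjusted p = 0.216), and with the head level as a covariate it turned to -0.25 (adjusted p = 0.621). In the head all 5 male libraries, with a highest value of 53.4 CPM, lay below all 5 female libraries, with a lowest value of 55.0 CPM, and the log2 fold was -0.41 (SE 0.13, adjusted p = 0.0653). This head difference missed the threshold in the edgeR fit of all 20 libraries, and passed it with DESeq2 (adjusted p = 0.0298), with the replicate number as a block (adjusted p = 0.0182), in a fit of the 10 head libraries alone (adjusted p = 0.0175) and without the 5 pedicels with the largest shares of identical copies (adjusted p = 0.0390), within a range of 0.0175 to 0.665 over 32 alternatives. It also passed when female pedicel 1 or 4 or male pedicel 2 or 4 was left out. The order of the group means was male pedicel (73.9 ± 12.3 CPM), female pedicel (64.0 ± 7.6 CPM), female head (63.7 ± 10.9 CPM) and male head (48.0 ± 4.75 CPM; SD, n = 5 each), and the ranges of the first 3 groups overlapped. The sex difference was not equal in the tissues by the interaction of sex and tissue (log2 fold 0.62, SE 0.19, adjusted p = 0.0357). That call was lost in 9 of the 20 fits that left out 1 library (female head 1 or 3, male head 1, 2, 4 or 5, or male pedicel 1, 3 or 5), with adjusted p between 0.0049 and 0.0774 over the 20. It was also lost with library totals (adjusted p = 0.157), without the filter on low counts (adjusted p = 0.0728), without the 5 pedicels above 20% of identical copies (adjusted p = 0.0649) and at a threshold of 0.01.

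Kr-h1, the early response gene of juvenile hormone, had its highest level in male pedicels. Male pedicels 1 to 5 held 90.6, 51.1, 102, 92.8 and 87.5 CPM, against 24.1, 20.6, 22.4, 29.4 and 19.9 CPM in female pedicels 1 to 5. In male heads 1 to 5 it stood at 11.9, 8.78, 10.8, 13.1 and 9.83 CPM, against 14.1, 12.9, 19.9, 13.4 and 9.81 CPM in female heads 1 to 5. All 5 male pedicels lay above all 15 other libraries, a pattern that 5.26% of the 11381 genes showed.

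The male pedicel exceeded the female pedicel in Kr-h1 by a log2 fold of 1.86 (SE 0.19), a fold of 3.63 with a 95% interval of 2.76 to 4.78 (edgeR adjusted p = 5.5e-07). Of all genes, 4.77% had a larger absolute log2 fold in this comparison. It was the 1 gene of the 4 called there, where 39.6% of all genes were called. The level of the head genes differed between the groups of this comparison. Male pedicel 2, at 36.6% of the head level, had the lowest Kr-h1 level of the male pedicels. The other 4, at 4.34% to 5.64%, held 87.5 to 102 CPM. Female pedicels 1 to 5 stood at 67.7%, 34.1%, 44.4%, 59.2% and 67.8% of the head level. Their Kr-h1 levels, of 24.1, 20.6, 22.4, 29.4 and 19.9 CPM, did not fall steadily as the head level rose. At close head levels, male pedicel 2 (36.6%) held 51.1 CPM and female pedicel 2 (34.1%) held 20.6 CPM. In a fit of the pedicels with the head level as a covariate, the log2 fold was 1.07 and no longer called (adjusted p = 0.0774, the highest of 33 alternatives, of which the lowest was 7.7e-20). Of the male pedicels, only library 2 reached the head levels of female pedicels, so this fit can hardly tell the head level from sex.

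Kr-h1 was also higher in the pedicel than in the head, in both sexes. In males the log2 fold was 2.96 (SE 0.20), a fold of 7.76 with a 95% interval of 5.82 to 10.3 (edgeR adjusted p = 3.8e-10), and every male pedicel lay above every male head. In females the log2 fold was 0.73 (SE 0.19), a fold of 1.66 with an interval of 1.26 to 2.18 (adjusted p = 0.00605), and female pedicel 5, at 19.9 CPM, stood level with female head 3, at 19.9 CPM, the 1 overlap between these groups. The female call was lost with library totals, where the log2 fold was 0.21 (adjusted p = 0.562, the highest of 32 alternatives, against 0.00126 as the lowest) beside a median of -0.43 over all genes. In the head the sexes were not called apart, at a log2 fold of -0.37 (95% interval -0.77 to 0.03, adjusted p = 0.280). The interaction of sex and tissue was 2.23 on the log2 scale (SE 0.27, adjusted p = 4.1e-05) and was called in all 31 alternatives. In that test 2.92% of all genes had a larger absolute value, and 2 of the 4 genes, Met and Kr-h1, were called against 11.9% of all genes.

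**Figure D1:**
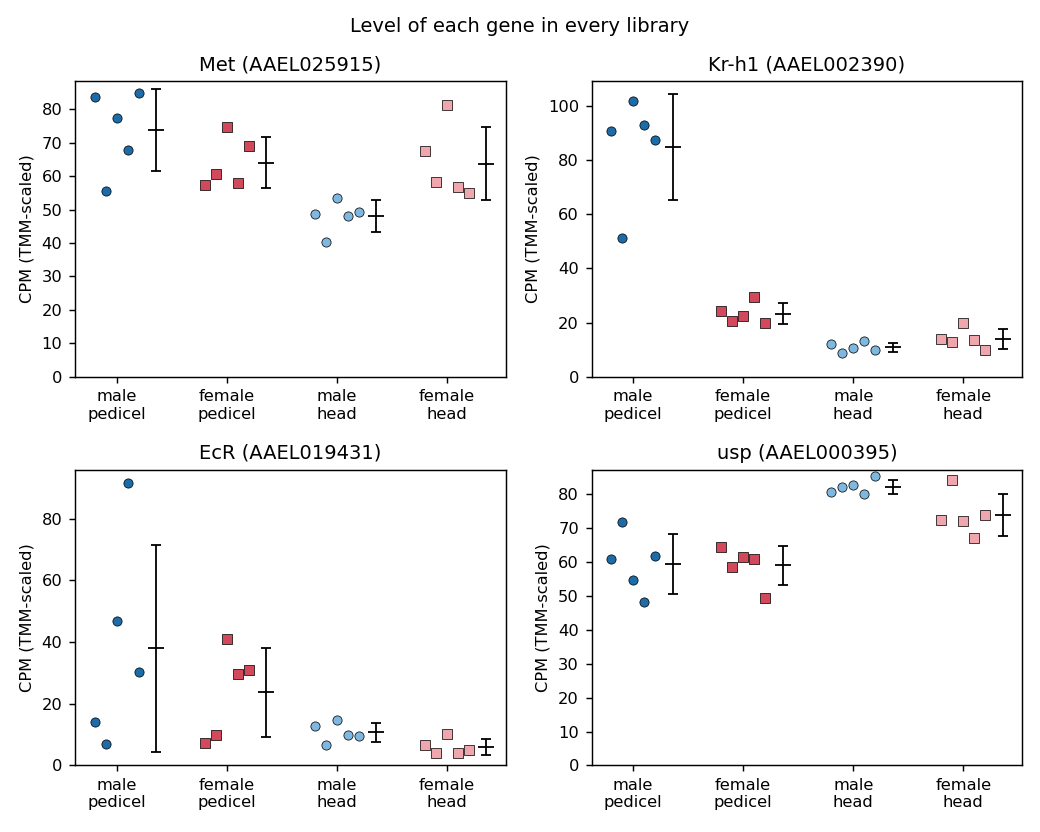
Level in CPM (TMM-scaled) of Met, Kr-h1, EcR and usp in each library, with 1 panel per gene. Points are libraries in the order of their replicate numbers, and bars give the mean and SD of 5 libraries. Kr-h1 is at 51.1 to 102 CPM in male pedicels and under 30 CPM in every other library, EcR spreads from 6.98 to 91.5 CPM in male pedicels, and usp lies lower in pedicels than in heads of males.

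EcR, the ecdysone receptor, was higher on average in pedicels than in heads, with a spread among pedicels far wider than among heads. Male pedicels 1 to 5 held 14.2, 6.98, 46.9, 91.5 and 30.3 CPM of EcR, against 12.8, 6.75, 14.9, 9.75 and 9.39 CPM in male heads 1 to 5. Male pedicels 3, 4 and 5 lay above all male heads, while male pedicels 1 and 2 lay among them. The log2 fold was 1.79 (SE 0.56), a fold of 3.45 with a 95% interval of 1.53 to 7.81 (edgeR adjusted p = 0.0124). Female pedicels 1 to 5 held 7.33, 9.93, 40.9, 29.6 and 30.9 CPM, against 6.52, 3.87, 10.3, 4.09 and 4.84 CPM in female heads 1 to 5. Female pedicels 3, 4 and 5 lay above all female heads, and pedicels 1 and 2 lay within their range. The log2 fold in females was 1.98 (SE 0.58), a fold of 3.94 with an interval of 1.69 to 9.18 (adjusted p = 0.0130).

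EcR moved with the share of identical-copy transcripts. The 2 male pedicels with more than 20% of counts in such copies held 46.9 and 91.5 CPM, and the other 3 held 6.98 to 30.3 CPM. Before scaling, male pedicels 3, 4 and 5 held close EcR counts, at 271, 287 and 269 of 7044776, 6403044 and 6775865 in all. Male pedicel 5 had 4.54% of identical copies. The TMM factors of male pedicels 3, 4 and 5 were 0.820, 0.490 and 1.31. The ratio of EcR to usp counts, which needs no scaling, also differed between them, at 0.858, 1.90 and 0.490. The 3 female pedicels above 20% held 29.6 to 40.9 CPM, and the other 2 held 7.33 and 9.93 CPM. Without these 5 pedicels both tissue calls were lost, at log2 folds of 0.72 in males (adjusted p = 0.150) and 0.54 in females (adjusted p = 0.409), the highest adjusted p of 32 alternatives in each sex, with 0.00201 and 0.00149 as the lowest. Both calls were also lost with the identical-copy split as a term in the edgeR fit. The log2 folds were then 0.68 in males (adjusted p = 0.125) and 0.52 in females (adjusted p = 0.3475). With limma-voom both were lost too (adjusted p = 0.0940 in males and 0.0567 in females), and the male call was lost without male pedicel 4 (log2 fold 1.17, adjusted p = 0.0610).

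The sexes were not called apart in EcR. In the pedicel the log2 fold was 0.66, with a 95% interval of -0.49 to 1.81 (edgeR adjusted p = 0.354), and in the head it was 0.85, with an interval of -0.36 to 2.06 (adjusted p = 0.426). The interaction of sex and tissue was -0.19 (interval -1.84 to 1.46, adjusted p = 0.916). With the identical-copy split as a term in the fit, the pedicel difference between male and female was 1.01 and was called (adjusted p = 0.0215, the lowest of 33 alternatives, of which the highest was 0.946). With the head level as a covariate in a fit of the pedicels, its direction turned, at a log2 fold of -2.16 (adjusted p = 0.454). That fit can hardly tell the head level from sex.

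usp, whose product is the dimer partner of EcR, went the other way and was lower in pedicels than in heads. Male pedicels 1 to 5 held 60.8, 71.8, 54.7, 48.1 and 61.8 CPM, against 80.5, 82.2, 82.8, 80.2 and 85.3 CPM in male heads 1 to 5. No male pedicel reached the lowest male head, and the log2 fold was -0.46 (SE 0.10), a fold of 0.725 with a 95% interval of 0.628 to 0.838 (edgeR adjusted p = 0.000672). Female pedicels 1 to 5 held 64.5, 58.7, 61.5, 60.7 and 49.5 CPM, against 72.4, 84.1, 72.1, 67.1 and 73.9 CPM in female heads 1 to 5. The female groups did not overlap either, at a log2 fold of -0.33 (SE 0.10, a fold of 0.798 with an interval of 0.691 to 0.922, adjusted p = 0.0163). In males usp also moved with the share of identical copies: the 2 pedicels above 20% held 48.1 and 54.7 CPM and the other 3 held 60.8 to 71.8 CPM. Female pedicels overlapped in this split: the 3 above 20% held 49.5 to 61.5 CPM and the other 2 held 58.7 and 64.5 CPM. Without these 5 pedicels the male log2 fold was -0.29 and still called (adjusted p = 0.0348). The male call was lost with library totals (log2 fold -0.62, adjusted p = 0.0702) and the female call without female head 2 (adjusted p = 0.0507), without the 5 pedicels above 20% of identical copies (log2 fold -0.26, adjusted p = 0.107) and with the identical-copy split as a term (log2 fold -0.20, adjusted p = 0.164). Adjusted p ran from 4.1e-06 to 0.0702 in males and from 0.000979 to 0.164 in females over 32 alternatives each.

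The spread of usp was the smallest of the 4 genes in male heads, where its coefficient of variation was 2.53%, against 14.8% in male pedicels. Between male and female pedicels the log2 fold of usp was 0.01, and its 95% interval of -0.19 to 0.22 corresponds to folds of 0.874 to 1.17 (edgeR adjusted p = 0.927). Between male and female heads it was 0.15 (interval -0.05 to 0.36, adjusted p = 0.399), and the interaction was -0.14 (interval -0.43 to 0.16, adjusted p = 0.580).

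Counts of called genes differed between the comparisons. Between pedicel and head of males 4 of 4 were called, 3 higher in the pedicel (Met, Kr-h1 and EcR) and 1 lower (usp), where 51% of all genes were called, 26.7% higher and 24.3% lower. In females 3 of 4 were called, Kr-h1 and EcR higher and usp lower in the pedicel, where 35.4% of all genes were called, 18.9% higher and 16.5% lower. Between male and female heads edgeR called 0 of 4, where 7.86% of all genes were called, 1 (Met) had an unadjusted p under 0.05, DESeq2 called 1, against 10.2% of all genes, and limma-voom 0, against 7.57%. The groups did not overlap for 1 of 4 genes between male and female pedicels, against 20.6% of all genes, for 1 of 4 between the heads of the sexes, against 9.81%, for 3 of 4 between the tissues of males, against 35.8%, and for 1 of 4 between the tissues of females, against 25.5%. The medians of the log2 folds of all genes lay between -0.02 and 0.10 in these 5 comparisons. With so few genes, these counts do not set the 4 genes apart from the rest of the table.

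**Figure D2:**
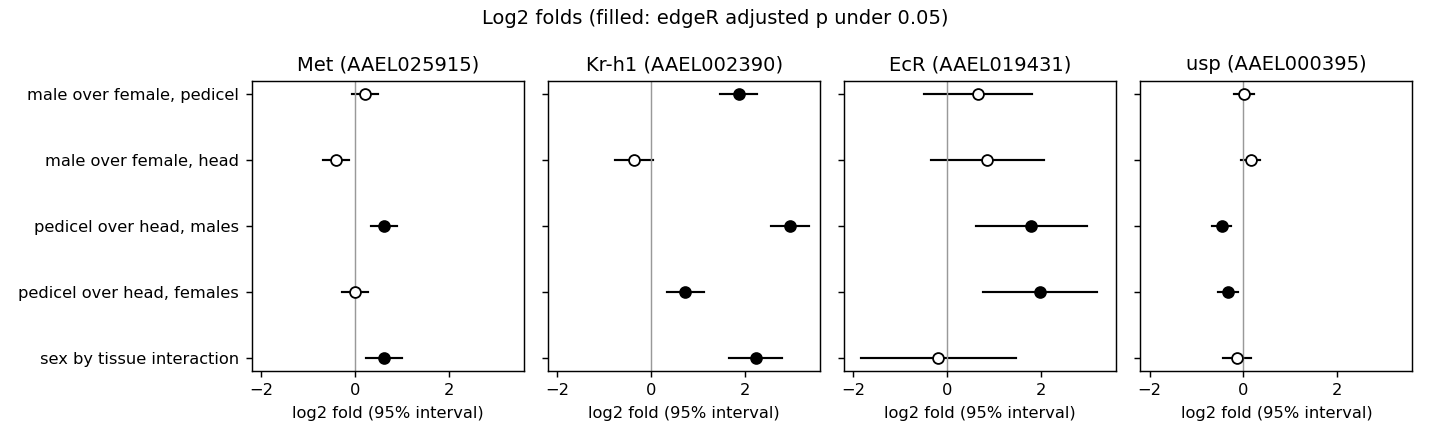
Log2 folds of the 4 genes in the 5 comparisons, with 95% intervals from the edgeR fit of all 20 libraries; filled points have an adjusted p under 0.05. Kr-h1 has positive folds of 1.86 between the sexes of the pedicel and 2.96 between the tissues of males, EcR has the widest intervals, and usp has negative folds of -0.46 and -0.33 between pedicel and head.

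**Figure D3:**
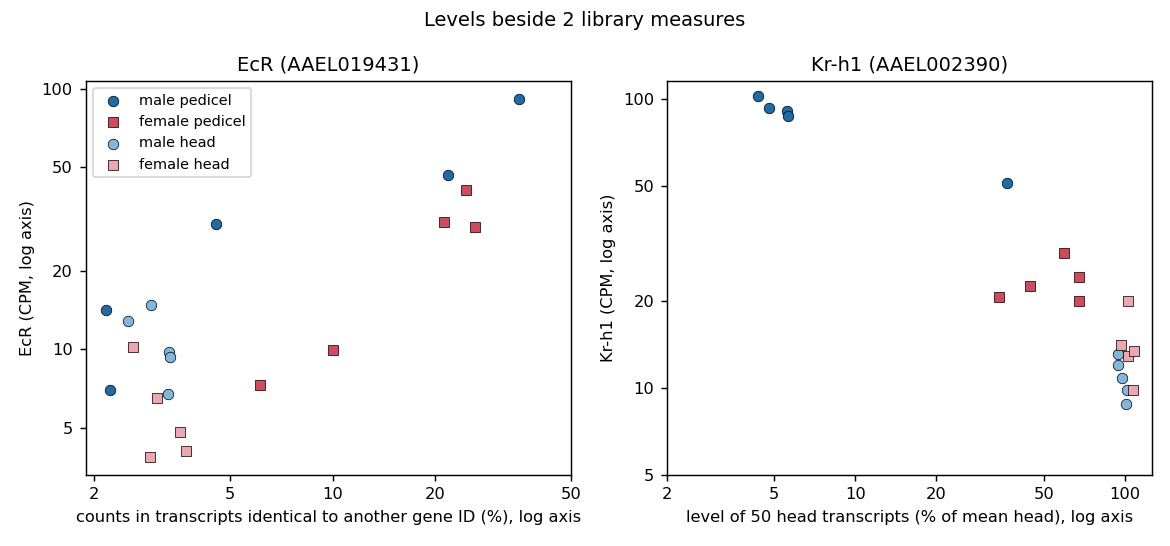
Left, level of EcR in CPM against the percentage of a library's counts in transcripts identical to those of another gene ID. Right, level of Kr-h1 in CPM against the median level of 50 head genes in percent of the mean head. All axes are logarithmic and each point is 1 of 20 libraries. The 5 pedicels above 20% on the left hold 29.6 to 91.5 CPM of EcR, and on the right male pedicel 2, at 36.6%, lies within the head levels of the female pedicels and, at 51.1 CPM of Kr-h1, below the other male pedicels and above the female pedicels.

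Ratios within a library remove the scaling between libraries and are given as a description, with no test. The ratio of Kr-h1 to Met counts had a median of 1.08 for male pedicels (range 0.921 to 1.37), 0.339 for female pedicels (0.288 to 0.506), 0.218 for male heads (0.200 to 0.272) and 0.222 for female heads (0.178 to 0.246). Male pedicels lay above all other libraries in this ratio, female pedicels lay above all heads, and the heads of the sexes overlapped. The ratio of EcR to usp counts had a median of 0.490 for male pedicels (0.0971 to 1.90), 0.487 for female pedicels (0.114 to 0.665), 0.122 for male heads (0.0821 to 0.180) and 0.0655 for female heads (0.0460 to 0.142). Ranges of this ratio overlapped between pedicels and heads of both sexes, and the lowest pedicel of each sex lay within the range of the heads of its sex. Transcript lengths were not used, so a ratio compares groups and does not say which of the genes had more molecules.

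The 4 genes had 9 transcripts in the table, 3 of Met and 2 of each other gene, among 34477 transcripts in all. The letters RA, RB and RC are the table's suffixes and are not taken here as named protein isoforms. A share is a transcript's estimated count in percent of its gene's count. Summed over transcripts, the count of each gene was a whole number within 0.001 in all 20 libraries, while most transcript values carried fractions, so the split between transcripts holds an error of estimation that no test here includes.

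Transcript RC of Met differed between the sexes in both tissues. It made up 6.31%, 2.01%, 12.3%, 9.57% and 5.74% of Met counts in male pedicels 1 to 5, against 28.4%, 36.6%, 50.2%, 44.9% and 43.5% in female pedicels 1 to 5. In male heads 1 to 5 its share was 12.1%, 21.0%, 17.7%, 16.7% and 10.1%, against 48.4%, 35.9%, 36.5%, 28.6% and 44.4% in female heads 1 to 5. All 10 male libraries lay below all 10 female libraries, and how many other transcripts do so was not counted. The mean share of male pedicels was 7.18 ± 3.92% and that of female pedicels 40.7 ± 8.43%, and the mean share of male heads was 15.5 ± 4.38% and that of female heads 38.8 ± 7.78% (SD, n = 5 each).

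As a level, male pedicels held 5.32 ± 2.89 CPM of Met-RC against 26.3 ± 7.65 CPM in female pedicels, a log2 fold of -2.30 (SE 0.38, edgeR over 19462 transcripts, adjusted p = 0.000536), or 4.94-fold lower in males. Male heads held 7.31 ± 1.84 CPM against 25.0 ± 6.51 CPM in female heads, a log2 fold of -1.77 (SE 0.38, adjusted p = 0.0114), or 3.42-fold lower in males. Of all transcripts, 14.2% were called in the pedicel and 2.57% in the head. This test of levels was added after the shares had been seen. Both calls held in each of its alternatives, which did not include the identical-copy split or the head level. In the 20 fits without 1 library, the adjusted p reached at most 0.00281 in the pedicel and 0.0429 in the head. Between the tissues Met-RC was not called, at log2 folds of -0.46 in males (adjusted p = 0.421) and 0.07 in females (adjusted p = 0.946), nor was the interaction (log2 fold -0.53, adjusted p = 0.770).

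The test of transcript usage, which asks whether a transcript changes unlike the rest of its gene, did not call Met-RC. With edgeR's diffSpliceDGE, which shares its estimate of spread among the transcripts of a gene, the log2 difference from the rest of Met was -2.51 in the pedicel (unadjusted p = 0.00599, adjusted p = 0.247) and -1.34 in the head (adjusted p = 1). Of all transcripts, 0.494% were called in the pedicel and 0.182% in the head. In the pedicel, diffSpliceDGE did not call it with pedicels alone either, nor with the replicate block (adjusted p = 0.420 with the block). There limma-voom's diffSplice gave -3.63 and called it (adjusted p = 0.00116), and in the head it gave -1.87 and did not (adjusted p = 0.110). A limma test of the log odds of the shares, added after seeing the data, gave -3.34 on the log2 scale in the pedicel (SE 0.53, adjusted p = 0.00268, where 0.762% of all transcripts were called) and -1.81 in the head (SE 0.53, adjusted p = 0.269, where 0.277% were called).

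The other Met transcripts were less regular. RA, with the largest mean share in each group, made up 84.6%, 84.7%, 47.4%, 90.4% and 79.9% of Met counts in male pedicels 1 to 5, against 71.6%, 63.4%, 49.8%, 37.7% and 25.6% in female pedicels 1 to 5, and male pedicel 3 lay among the female libraries. RC exceeded RA in female pedicels 3, 4 and 5 and in female head 1. Male heads had a mean RA share of 63.7 ± 11.8%, against 55.9 ± 12.1% for female heads (SD, n = 5 each). As a level, RA was higher in male pedicels, at 56.6 ± 14.1 CPM, than in female ones, at 31.3 ± 11.2 CPM (log2 fold 0.85, SE 0.24, edgeR adjusted p = 0.0222). It was also higher in male pedicels than in male heads, at 30.3 ± 6.26 CPM (log2 fold 0.90, SE 0.24, adjusted p = 0.00991). The call on RA between the pedicels of the sexes was lost when only pedicels were fitted (adjusted p = 0.107) and without male pedicel 1 or 5 or female pedicel 4 or 5, and the call between the tissues of males was lost with library totals (adjusted p = 0.189).

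RB of Met was estimated at under 1 count in 7 of 20 libraries, and its share ran from 0 to 40.3% in male pedicels, up to 30.8% in female pedicels, from 9.62% to 30.6% in male heads and up to 19.5% in female heads. Its level was called in none of the 5 comparisons, with a log2 fold of 0.94 and a 95% interval of -2.60 to 4.47 between male and female pedicels (adjusted p = 0.808). These values say little about RB beyond its wide error.

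Both transcripts of Kr-h1 took part in its rise in male pedicels. Male pedicels averaged 29.5 ± 4.80 CPM of RA, against 10.2 ± 5.76 CPM for female pedicels (log2 fold 1.52, SE 0.35, edgeR adjusted p = 0.00641). Of RB they averaged 54.4 ± 16.7 CPM, against 13.0 ± 6.92 CPM for female pedicels (log2 fold 2.07, SE 0.42, adjusted p = 0.00233). Against male heads, the log2 folds of male pedicels were 2.40 for RA (adjusted p = 0.000119) and 3.37 for RB (adjusted p = 2.7e-05). The share of RB averaged 63.5 ± 10.1% for male pedicels, 55.2 ± 23.6% for female pedicels, 48.1 ± 16.0% for male heads and 40.6 ± 16.3% for female heads (SD, n = 5 each), and its ranges overlapped between all groups.

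In EcR the 2 transcripts were close to even in male pedicels. RB made up 66.8%, 43.6%, 44.3%, 47.5% and 52.5% of EcR counts in male pedicels 1 to 5, against 22.4%, 39.9%, 39.3%, 38.1% and 30.4% in female pedicels 1 to 5. In male heads 1 to 5 its share was 33.3%, 29.8%, 23.6%, 26.7% and 27.1%, against 29.3%, 16.8%, 54.1%, 47.2% and 31.4% in female heads 1 to 5. Every male pedicel lay above every female pedicel and every male head, and how many other transcripts do so was not counted. The tests of usage did not call these differences, with diffSpliceDGE at adjusted p = 1 in both comparisons. With the log odds, the log2 difference was 0.99 between male and female pedicels (SE 0.61, adjusted p = 0.583). Between male pedicels and male heads it was 1.38 (SE 0.61, adjusted p = 0.211). As a level, RB was higher in male pedicels than in male heads, at 17.9 ± 14.3 CPM and 2.99 ± 0.857 CPM (log2 fold 2.57, SE 0.67, edgeR adjusted p = 0.00869), and RA was not called there (log2 fold 1.29, adjusted p = 0.111) except when male pedicel 2 was left out (adjusted p = 0.0424). Between female pedicels and female heads RA was called (log2 fold 2.04, SE 0.59, adjusted p = 0.0290) and RB was not (log2 fold 1.84, adjusted p = 0.0782). The RA call was lost without any 1 of female heads 2 to 5 or female pedicels 3 to 5, and RB was called without female head 3, female pedicel 1 or male pedicel 2 and with the replicate number as a block (adjusted p = 0.0298). Among male pedicels, the level of RB was highest in libraries 3 and 4 (20.3 and 40.7 CPM), the 2 above 20% of identical copies. The alternatives to these tests of levels did not include the identical-copy split.

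The transcripts of usp were held at even shares in the heads. RA made up 46.1 ± 11.2% of the usp counts of male pedicels and 54.3 ± 6.96% of those of female pedicels, against 49.0 ± 1.75% for male heads and 48.5 ± 1.75% for female heads (SD, n = 5 each). Ranges of the pedicels of the sexes overlapped, and no test of usage called usp. RA was lower in male pedicels than in male heads, at 26.7 ± 2.87 CPM and 40.1 ± 2.58 CPM (log2 fold -0.59, SE 0.11, edgeR adjusted p = 0.000715), and for RB the log2 fold was -0.33 (95% interval -0.78 to 0.11, adjusted p = 0.291).

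Over the 9 transcripts, diffSpliceDGE called 0 in each of the 4 comparisons between the sexes and between the tissues, where it called 1.67% of all transcripts between the tissues of males and 0.65% between those of females. At an unadjusted p under 0.05 stood 1 transcript (Met-RC) between male and female pedicels and 0 in the other comparisons. Between male and female pedicels the log odds test called 1 (Met-RC), against 0.762% of all transcripts, and limma-voom's diffSplice called 2 (Met-RC and Met-RA), against 1.72%. Both called 0 in the other comparisons. There the log odds test called 0.277% of all transcripts between the heads of the sexes, 6.4% between the tissues of males and 0.988% between those of females, and diffSplice called 0.806%, 10.1% and 1.91% in the same order. By level, 4 of the 9 were called between male and female pedicels, against 14.2% of all transcripts, and 1 between the heads of the sexes, against 2.57%. Between the tissues, 5 of the 9 were called in males, against 25% of all transcripts, and 1 in females, against 12.3%. For the interaction 1 was called, against 1.79% of all transcripts: Kr-h1-RA, at a log2 fold of 2.12 (adjusted p = 0.0333), whose call was lost in 13 of the 20 fits without 1 library.

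**Figure D4:**
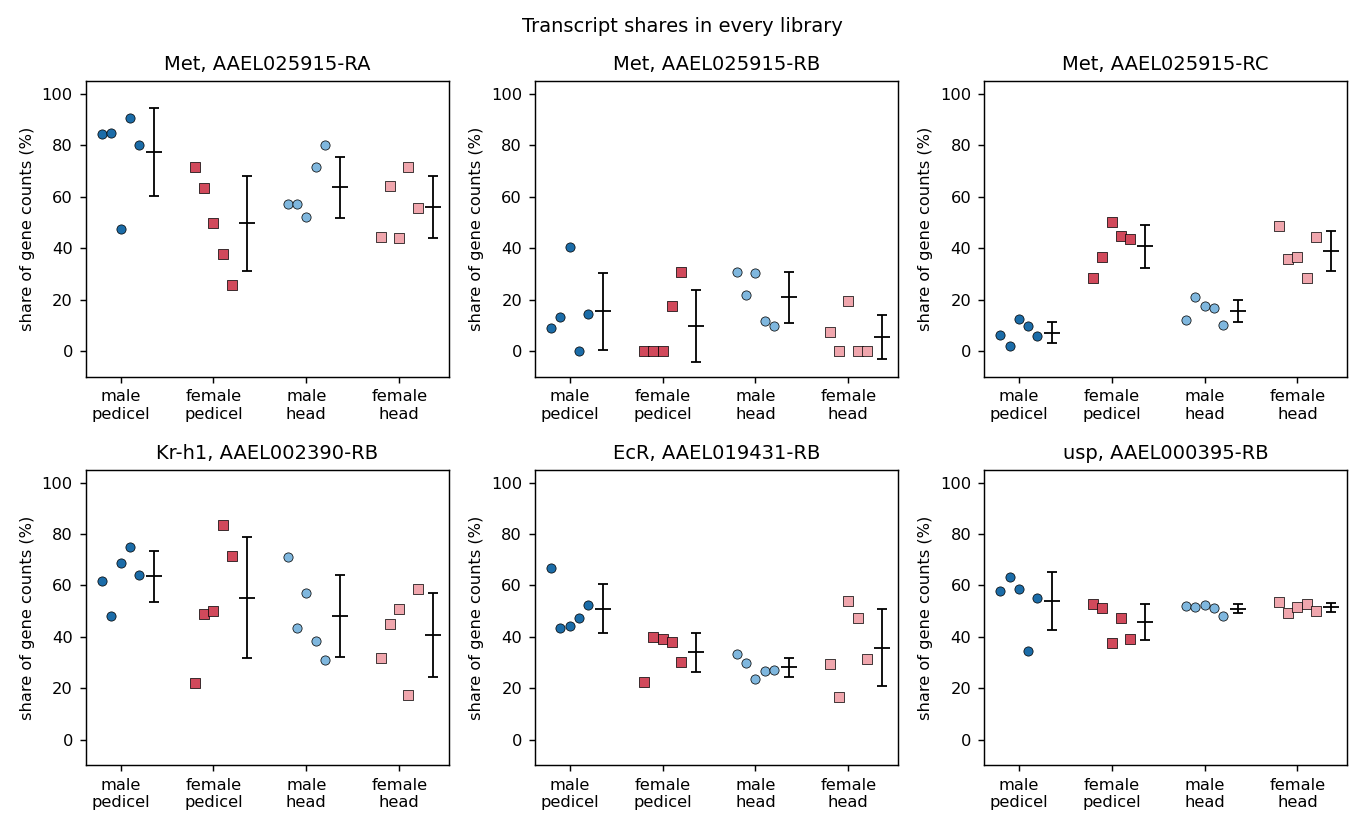
Share of a transcript in its gene's counts, in percent, in each library, for the 3 transcripts of Met and for the RB transcript of Kr-h1, EcR and usp. Points are libraries in the order of their replicate numbers, and bars give the mean and SD of 5 libraries. The share of Met-RC is 2.01% to 21.0% in the 10 male libraries and 28.4% to 50.2% in the 10 female libraries.

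For each of the 4, the gene with the most similar pattern was sought among 6443 other genes with a mean of at least 10 CPM, by Pearson's correlation of log2 CPM over the 20 libraries. These values describe the libraries and carry no p, since the libraries share their groups and their scaling. Closest to Kr-h1 was AAEL012536, with r = 0.98 over all libraries and 0.65 once each group's mean was taken off. Its mean was 67.2 CPM for male pedicels, 26.6 CPM for female pedicels, 13.8 CPM for male heads and 16.0 CPM for female heads. Closest to EcR was AAEL001242, with r = 0.98 and 0.97 without the group means, with means of 81.9 CPM for male pedicels, 53.3 CPM for female pedicels, 22.6 CPM for male heads and 15.1 CPM for female heads. The second value pools the deviations of all 20 libraries, and no correlation was computed for a single group. The genes ranked next after it had similar second values, of 0.945 to 0.960. Closest to usp was AAEL009658 (r = 0.94, and 0.81 without the group means), and closest to Met was AAEL011055 (r = 0.85 and 0.60). The sources used here give these 4 IDs no name.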

How the data were processed

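The authors deposited 1 table of estimated counts, with a value for every transcript and library and no scaling. The submitters' processing notes name FastQC, HISAT2 and featureCounts; not given in the sources used here are versions, genome build, annotation and how fractional values arose. Its columns, which say JO and brain, were matched to libraries through the labels' descriptions. Estimated counts were summed per gene ID (19804 IDs of 34477 transcripts) and rounded. All 20 libraries entered 1 edgeR quasi-likelihood fit (edgeR 4.0.16, R 4.3.3; filterByExpr, TMM, robust, 1 mean per group), with Benjamini-Hochberg adjustment over 11381 genes. Transcript usage was tested with diffSpliceDGE on 11544 transcripts of 3387 genes, and transcript levels over 19462 transcripts. Standard errors are the absolute log2 fold over the square root of F.

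The genes, lists and tests were chosen with earlier results of these data known. The text names these 4 genes, their transcripts, and for each the most correlated gene. Of the table's IDs, 0 matched the AaegL5.0 RefSeq gene table, so lists of other hormone genes and tissue markers, which rest on names, were not analysed here, and sequences are not shown. The 50 head genes reached 50 CPM or more in every head and differed by under 0.5 in log2 fold between heads of the sexes. Of such genes, they had the lowest values in any pedicel relative to heads. Identical copies are 263 transcripts (equal to 3 decimals, maximum above 5). Lowest chi-square per degree of freedom between libraries of a group was 5.27, so none were merged. Alternatives were other scalings, filters and subsets, DESeq2 1.42.0 and limma 3.58.1. The tests were tried on simulated data.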

Additional observations from a re-analysis of the deposited data

Results flagged for a closer look

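Kr-h1 differed between the sexes unequally in the tissues, with an interaction of 2.23 on the log2 scale, and so did Met, with an interaction of 0.62. The Met call was lost in 9 of the 20 fits that left out 1 library, while the Kr-h1 call held in all of them. In each group of 5 libraries, a library was also marked when its gap to the nearest other library exceeded 0.71 of the group's range. This was tried on 16 groups of gene levels and 24 groups of transcript shares, where chance marks about 1 in 20 groups, and it marked 4. Male pedicel 2, at 51.1 CPM of Kr-h1, lay below the other 4 male pedicels. Male pedicel 3, at 47.4%, lay below them in the share of Met-RA (AAEL025915-RA). Male pedicel 4, at 65.4%, lay above them in the share of usp-RA (AAEL000395-RA). Male head 5, at 52.1%, lay above the other male heads in that share.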

How the results depend on the processing

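No called gene or transcript of the set changed direction, but the head-level covariate turned the uncalled pedicel differences between the sexes of EcR (-2.16) and Met (-0.25). Of 640 alternative log2 folds of the 4 genes, 601 stayed on their side of the threshold, 30 lost a call and 9 gained one; of 1070 for transcript levels, 28 lost and 12 gained one. Library totals alone moved the median log2 fold of all genes to 0.35 between the sexes of the pedicel and 0.10 between those of the head, -0.12 and -0.43 for tissue in males and females and 0.29 for the interaction, and the share of positive calls to 77.3%, 31.2%, 38.3%, 18.8% and 70.2%, against 46.5%, 14.3%, 52.4%, 53.3% and 54.4%. The cause of the changes in counts below was not tested. Genes called for the interaction numbered 1352, and 497 at an adjusted p under 0.01, 426 with library totals and 467 without the 5 pedicels above 20% of identical copies. For sex in the head, 894 became 520 at an adjusted p under 0.01, 571 with library totals and 1497 with heads alone. For sex in the pedicel, 4504 became 164 with the head-level covariate, and for tissue in females 4028 became 2485 at an adjusted p under 0.01. Leaving out 1 library gave 912 to 2694 for the interaction (2694 without male pedicel 2). Genes with changed transcript usage numbered 47 for sex in the pedicel (116 with limma-voom, 15 with pedicels alone, 33 to 74 without 1 library, the most without male pedicel 2) and 21 for sex in the head (60 with limma-voom, 8 with heads alone, 11 with the replicate block, 10 to 22 without 1 library, with 10 to 13 without female head 1 or 5 or male head 3, 4 or 5). They numbered 58 for tissue in females (165 with limma-voom, 26 with females alone, 35 to 76 without 1 library, with 35 and 38 without female heads 4 and 5) and 124 for tissue in males (619 with limma-voom, 384 with the log odds of shares). Transcripts called by level numbered 349 for the interaction (61 with library totals, 212 to 1320 without 1 library, with 1320 without male pedicel 2 and 212 to 232 without male pedicel 1 or 5 or male head 3 or 4), 500 for sex in the head (243 with library totals) and 2755 for sex in the pedicel (1690 with pedicels alone).

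Same-numbered libraries of 2 groups correlated in their deviations at r of -0.02 to 0.38, above 0.1 in 13 of 20 pairs. Of the 20, 10 matched their own number best, where no pairing would give 4 on average, a hint of pairing from the data. Since the labels name nothing that a number shares and not every pair was above 0.1, the numbers were not taken as pairs. The replicate block gave 5047, 1208, 6254, 4565 and 1990 called genes for sex in the pedicel and head, tissue in males and females and the interaction, and called Met between the heads of the sexes (adjusted p = 0.0182) and EcR-RB by level between the tissues of females (log2 fold 1.88, adjusted p = 0.0298). It ended the call on Kr-h1-RA in the interaction of levels (adjusted p = 0.0534, against 0.0333 without it), and it changed no other call on the 4 genes or their transcripts. EcR, with as few as 30 counts in a library, has the least precise values of the 4.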

Other observations

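Within groups, the same libraries stood at the edge for several of these genes. Male pedicel 2 was the lowest of its group in 3 of the 4 genes (Met, Kr-h1 and EcR) and the highest in usp. Male head 2 was the lowest of its group in the same 3 genes, at 40.4 CPM of Met, 8.78 of Kr-h1 and 6.75 of EcR. Female head 3 was the highest of its group in these 3, at 81.1, 19.9 and 10.3 CPM.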
